A study of Mus musculus with 18 samples.

Results

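The long-term stem cell of blood (LT-HSC) and the myeloid-biased multipotent progenitor (MPP3) of wild-type mice were compared gene by gene, as the step from the stem cell to the first progenitor that leans towards granulocytes and monocytes. The comparison used the 3 LT-HSC WT and the 3 MPP3 WT libraries, chosen by their titles, which is 6 of the 18 RNA-seq libraries of the study. Both populations came from the bone marrow of the same 3 WT mice, aged 10 weeks and without treatment in the labels, and the number in a title was taken to name the mouse. LT-HSC were sorted as Lin-Sca1+ckit+CD48-CD150+ cells and MPP3 as Lin-Sca1+ckit+CD48+CD150-Flt3- cells, so all 6 libraries share the lineage-negative, Sca1-positive, ckit-positive gate. The other 12 libraries were MPP4, the lymphoid-biased progenitor, of the same WT mice, and LT-HSC, MPP3 and MPP4 of 3 Helios KO mice of the same age, which lack the transcription factor encoded by Ikzf2. The KO LT-HSC and MPP3 libraries gave the same step in other animals, and MPP4 WT gave a second progenitor for side-by-side values.

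LT-HSC sit at the top of blood formation, divide rarely and are kept in a resting state by niche signals such as angiopoietin. MPP3 divide more often, have lost durable self-renewal and feed mainly the granulocyte and monocyte lineages, whose first protein products are the proteases and peroxidase of the primary granules. Stem cells sorted on CD150 are also known to carry transcripts of the megakaryocyte lineage, which makes platelets.

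Promoters of members of the granule, platelet, replication and mast cell lists are shown first, so that the sequences stand beside the values given further on. Each is the RefSeq sequence (GRCm38.p6) of 300 bases on the gene's own strand, 250 before the start and 50 from it, in lower case with motif matches in capitals. Both strands were searched for the letters TTTCGCGC, TTTGGCGC, TTTCCCGC and TTTGCCGC of E2F factors. The GATA motif was AGATAA, or the variant of it that reads TGATAA, the ETS motif of factors such as PU.1 was AGGAAGT, and the C/EBP motif was TTGCNNAA. Only the motifs named for each list were marked, and positions count from 0 at the start. The starts of the promoters shown lay 0 to 539 bases from the deposited 5′ end of the gene. Nkg7, Plac8 and Cst7 are the members of the primary granule list with the smallest p, and were searched for C/EBP and ETS motifs. Nkg7 (chr7:43436888-43437187, plus strand), Plac8 (chr5:100572156-100572455, minus strand) and Cst7 (chr2:150570165-150570464, plus strand) read as follows.
Nkg7: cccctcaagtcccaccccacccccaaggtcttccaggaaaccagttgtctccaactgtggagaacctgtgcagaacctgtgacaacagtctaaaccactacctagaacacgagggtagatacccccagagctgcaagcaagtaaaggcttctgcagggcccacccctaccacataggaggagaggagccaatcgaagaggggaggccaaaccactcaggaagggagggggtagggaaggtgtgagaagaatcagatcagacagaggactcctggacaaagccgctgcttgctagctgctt
Plac8: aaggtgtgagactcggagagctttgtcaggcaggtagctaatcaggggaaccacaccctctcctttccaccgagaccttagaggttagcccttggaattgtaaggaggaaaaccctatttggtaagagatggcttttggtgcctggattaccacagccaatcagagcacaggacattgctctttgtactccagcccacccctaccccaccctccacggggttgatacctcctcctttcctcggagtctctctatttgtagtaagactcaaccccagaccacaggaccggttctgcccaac
Cst7: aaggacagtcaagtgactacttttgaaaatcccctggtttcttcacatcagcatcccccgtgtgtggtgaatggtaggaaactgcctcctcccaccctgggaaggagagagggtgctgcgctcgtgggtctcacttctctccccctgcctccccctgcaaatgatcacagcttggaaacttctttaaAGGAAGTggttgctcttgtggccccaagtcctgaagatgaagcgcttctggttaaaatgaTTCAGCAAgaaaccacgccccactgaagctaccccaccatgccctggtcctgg
Only Cst7 of these held a match, with an ETS motif starting at -63 and a C/EBP motif at -3 relative to the start. Gucy1a1 (chr3:82145601-82145900, minus strand), a subunit of the nitric oxide receptor of platelets and the platelet gene of smallest p with a RefSeq start near its deposited 5′ end, held no GATA or ETS match.
Gucy1a1: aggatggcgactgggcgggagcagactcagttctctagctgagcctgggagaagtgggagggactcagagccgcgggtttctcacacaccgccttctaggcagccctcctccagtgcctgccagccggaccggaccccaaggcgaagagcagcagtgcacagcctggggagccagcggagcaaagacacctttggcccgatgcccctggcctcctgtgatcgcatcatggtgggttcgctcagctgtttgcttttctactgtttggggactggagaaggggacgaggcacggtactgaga
Mcm7 (chr5:138171834-138172133, minus strand) and Mcm5 (chr8:75109259-75109558, plus strand), subunits of the replicative helicase, are the replication genes of smallest p that hold an E2F match and are shown for it.
Mcm7: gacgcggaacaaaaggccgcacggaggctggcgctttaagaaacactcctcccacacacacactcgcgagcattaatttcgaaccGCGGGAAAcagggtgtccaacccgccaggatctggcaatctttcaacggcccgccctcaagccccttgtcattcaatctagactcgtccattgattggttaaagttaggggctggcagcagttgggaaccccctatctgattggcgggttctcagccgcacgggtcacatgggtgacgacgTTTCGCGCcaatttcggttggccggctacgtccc
Mcm5: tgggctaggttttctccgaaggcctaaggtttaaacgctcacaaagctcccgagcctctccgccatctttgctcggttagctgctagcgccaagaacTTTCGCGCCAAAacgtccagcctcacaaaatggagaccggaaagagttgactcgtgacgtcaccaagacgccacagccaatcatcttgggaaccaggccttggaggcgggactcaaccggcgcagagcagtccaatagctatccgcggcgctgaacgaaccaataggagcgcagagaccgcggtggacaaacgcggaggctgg
Their E2F matches start at -165 and 16 in Mcm7 and, overlapping each other, at -153 and -149 in Mcm5. Cpa3 (chr3:20242132-20242431, minus strand), a mast cell protease, and Ms4a2 (chr19:11623670-11623969, minus strand), the beta chain of the IgE receptor, are the mast cell genes of smallest p with a GATA match and are shown for it, with matches at -46 in Cpa3 and at -224, -37 and -11 in Ms4a2.
Cpa3: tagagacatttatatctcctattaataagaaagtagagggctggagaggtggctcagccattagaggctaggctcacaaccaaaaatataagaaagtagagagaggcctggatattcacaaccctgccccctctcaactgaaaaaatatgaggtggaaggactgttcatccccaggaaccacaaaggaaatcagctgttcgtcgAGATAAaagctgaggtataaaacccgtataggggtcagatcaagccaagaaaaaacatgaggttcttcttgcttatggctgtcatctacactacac
Ms4a2: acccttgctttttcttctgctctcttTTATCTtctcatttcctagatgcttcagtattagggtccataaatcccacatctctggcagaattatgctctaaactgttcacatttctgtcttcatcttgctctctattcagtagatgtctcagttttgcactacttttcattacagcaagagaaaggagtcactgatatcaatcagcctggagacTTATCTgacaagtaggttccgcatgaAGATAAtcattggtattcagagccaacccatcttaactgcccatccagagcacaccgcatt

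Over whole lists, an E2F match was found in 13 of 41 DNA replication promoters (31.7%), against 451 of the 11246 promoters of tested genes (4.01%) and 2.32% of all 27025 in the table. Mitosis promoters held one in 3 of 37 (8.11%). A GATA match was found in 8 of 30 megakaryocyte and platelet promoters (26.7%) and in 5 of 8 mast cell, basophil and eosinophil promoters (62.5%), against 1183 of 11246 promoters of tested genes and 18.9% of all. ETS matches were found in 7 of 14 primary granule promoters (50%), among them Mpo, Elane, Prtn3 and Ctsg, against 9.32% of tested genes. C/EBP matches were found in 2 of the 14 (14.3%), Cst7 and Ms4a3, against 8.5%. For these shares the nearest RefSeq start was used at any distance from the deposited 5′ end. It lay 19341 bases away for Mmrn1, among the 8 platelet promoters with a GATA match. For Timeless, a replication promoter without an E2F match, it lay 6001 bases away. These counts describe letters in a short window, not binding.

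Of 16325 genes tested, 2831 (17.3%) passed an adjusted p of 0.05 in the edgeR quasi-likelihood test, 1580 of them higher in MPP3 (9.68%) and 1251 lower (7.66%). The change was at least 8-fold (3 on the log2 scale) for 230 higher and 249 lower genes, and the lower side had more genes past 2-fold, with 686 against 517. The libraries of the groups did not overlap for 1541 of the 1580 higher and 1209 of the 1251 lower genes, against 19.1% and 16.4% of all tested genes in each direction. Within each mouse, MPP3 moved the same way in all 3 pairs for 1558 of the higher and 1240 of the lower genes. Groups that do not overlap agree in all 3 pairs under any pairing, so this count is no separate evidence for the calls. Without MPP3 WT 3, the counts dropped to 919 higher and 690 lower. In sorted bulk RNA, fewer cells that express a gene and less RNA per cell cannot be told apart.

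Total counts were 23049108 to 27711201 reads in 5 of the 6 libraries and 45410959 in LT-HSC WT 3, so counting error is small for all but the lowest genes. Some libraries stood apart. LT-HSC WT 2 and 3 held transcripts of mature neutrophils, with the granule protein gene Ltf at 0.078, 19.7 and 65.8 CPM in LT-HSC WT 1 to 3 (CPM, read counts scaled to library size). MPP3 WT 1 and 2 held immunoglobulin segments at a summed 4560 and 4820 CPM, against 191 in MPP3 WT 3 and 3.39 to 13.7 in LT-HSC WT. Leaving out LT-HSC WT 2 and 3 gave 963 higher and 814 lower genes, and leaving out MPP3 WT 1 and 2 gave 757 and 436. Of the gate genes, Cd48 and Slamf1 followed the sort: Cd48 was 3.21 to 10.4 CPM in LT-HSC WT and 303 to 323 in MPP3 WT, and Slamf1, which encodes CD150, was 64.5, 69.6 and 75.1 against 5.83, 5.37 and 5.79. Flt3, whose protein was gated against in MPP3, was nonetheless higher there as RNA (3.12, adjusted p = 3.18e-08, edgeR). It was 66.4, 114 and 89.9 CPM in LT-HSC WT and 876, 699 and 782 in MPP3 WT. Kit and Ly6a, which encode ckit and Sca1 of the shared gate, were not called (-0.34 ± 0.15 (SE) and -0.40 ± 0.16 (SE)), and passed with the mouse as a block (-0.35 and -0.41, adjusted p = 0.005 and 0.0177, edgeR); Ly6a also passed in DESeq2 (-0.44, adjusted p = 0.0392) and without LT-HSC WT 1 (-0.57, adjusted p = 0.0275, edgeR). Markers of the label were on the labelled side, since Mpo, Ctsg, Prtn3, Csf3r and Cebpa were all higher in MPP3 and Procr, Fgd5 and Mecom in LT-HSC, while Hlf missed the threshold (adjusted p = 0.161, edgeR).

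**Figure D1:**
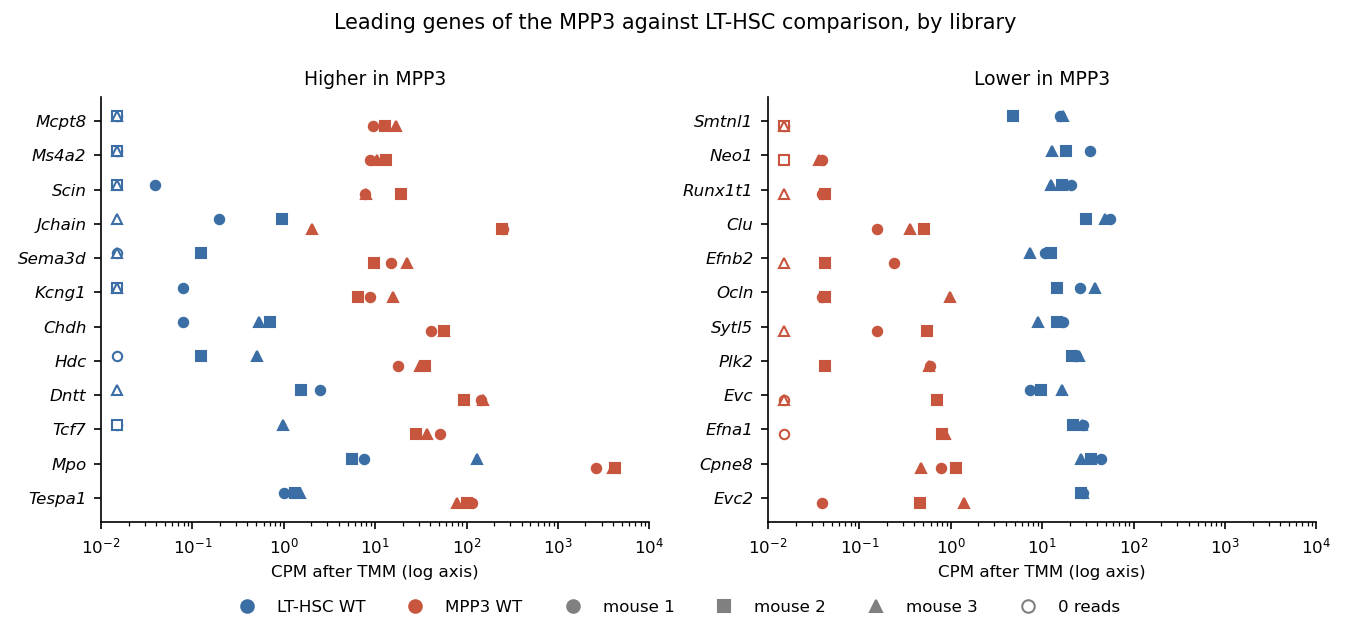
CPM (log axis) of the 12 higher and 12 lower genes with the largest fitted change among called genes that averaged 10 CPM or more in MPP3 or LT-HSC, whichever was higher, in each LT-HSC WT and MPP3 WT library; open symbols mark 0 reads. Immunoglobulin and T cell receptor segments, predicted genes and gate genes were left out. No gene's MPP3 points reach its LT-HSC points, which was part of how the genes were chosen.

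The genes with the largest increase included basophil, neutrophil and lymphoid genes. Mcpt8 (ENSMUSG00000022157, mm10 chr14:56082166-56085273), a basophil protease, had no read in any LT-HSC WT library and was 9.49, 12.7 and 16.7 CPM in MPP3 WT 1 to 3. Taking 3 reads in the whole LT-HSC WT group as the floor, it was at least 420-fold higher. Ms4a2 was at least 343-fold higher on the same floor. Mpo (ENSMUSG00000009350, chr11:87793581-87804413), the peroxidase of primary granules, rose by 6.23 ± 0.91 (SE) on the log2 scale (adjusted p = 0.000223, edgeR). Its level was 7.45, 5.59 and 129.8 CPM in LT-HSC WT and 2624, 4224 and 4045 in MPP3 WT, so the groups stood far apart although LT-HSC WT 3 lay well above LT-HSC WT 1 and 2. Tespa1, a T cell signalling adaptor, went from 1.01, 1.33 and 1.499 to 115, 101 and 77.9 CPM. With immunoglobulin and T cell receptor segments left out, the other higher leaders were Scin, an actin-severing protein, Hdc, which makes histamine, Sema3d, Kcng1, Chdh, Dntt, Tcf7 and Jchain, with log2 changes between 6.63 and 9.57. Of these, Scin, Hdc, Tcf7 and Jchain averaged more in MPP3 WT than in MPP4 WT, and Sema3d, Kcng1, Chdh and Dntt less. Sema3d and Kcng1 averaged 15.8 and 10.3 CPM in MPP3 WT and 103 and 89.6 in MPP4 WT (adjusted p = 0.000689 and 0.000671, edgeR). Jchain, of antibody-secreting cells, was 249, 244 and 2.02 CPM in MPP3 WT 1 to 3, high in the immunoglobulin-rich libraries, and lost its call without MPP3 WT 1 and 2 (adjusted p = 0.414, edgeR) and under limma voom (0.435).

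The genes that fell furthest included cell surface genes and the ciliary genes Evc and Evc2, which lie next to each other (chr5:37289098-37336894 and chr5:37338499-37425055). Neo1 (ENSMUSG00000032340, chr9:58874687-59036441), a netrin receptor known as a stem cell marker, was 33.7, 18.3 and 12.7 CPM in LT-HSC WT and 0.0394, 0 and 0.0362 in MPP3 WT, a log2 change of -9.46 ± 1.26 (SE) (adjusted p = 1e-04, edgeR). Clu (ENSMUSG00000022037, chr14:65968483-65981547), the secreted chaperone clusterin, was 55.5, 30.2 and 49.1 CPM against 0.158, 0.504 and 0.362. Runx1t1, a corepressor, was 20.8, 16.6 and 12.4 against 0.0394, 0.042 and 0. Evc2, a component of the ciliary base and partner of Evc, was 27.8, 26.4 and 27.6 against 0.0394, 0.462 and 1.41 CPM, with the lowest LT-HSC library far above the highest MPP3 library. The ephrin ligands Efna1 and Efnb2, the tight junction gene Ocln, and Sytl5, Cpne8, Evc and Plk2 fell by between 5.46 and 6.72 on the log2 scale. Smtnl1 had no read in MPP3 WT and was at least 347-fold lower.

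**Figure D2:**
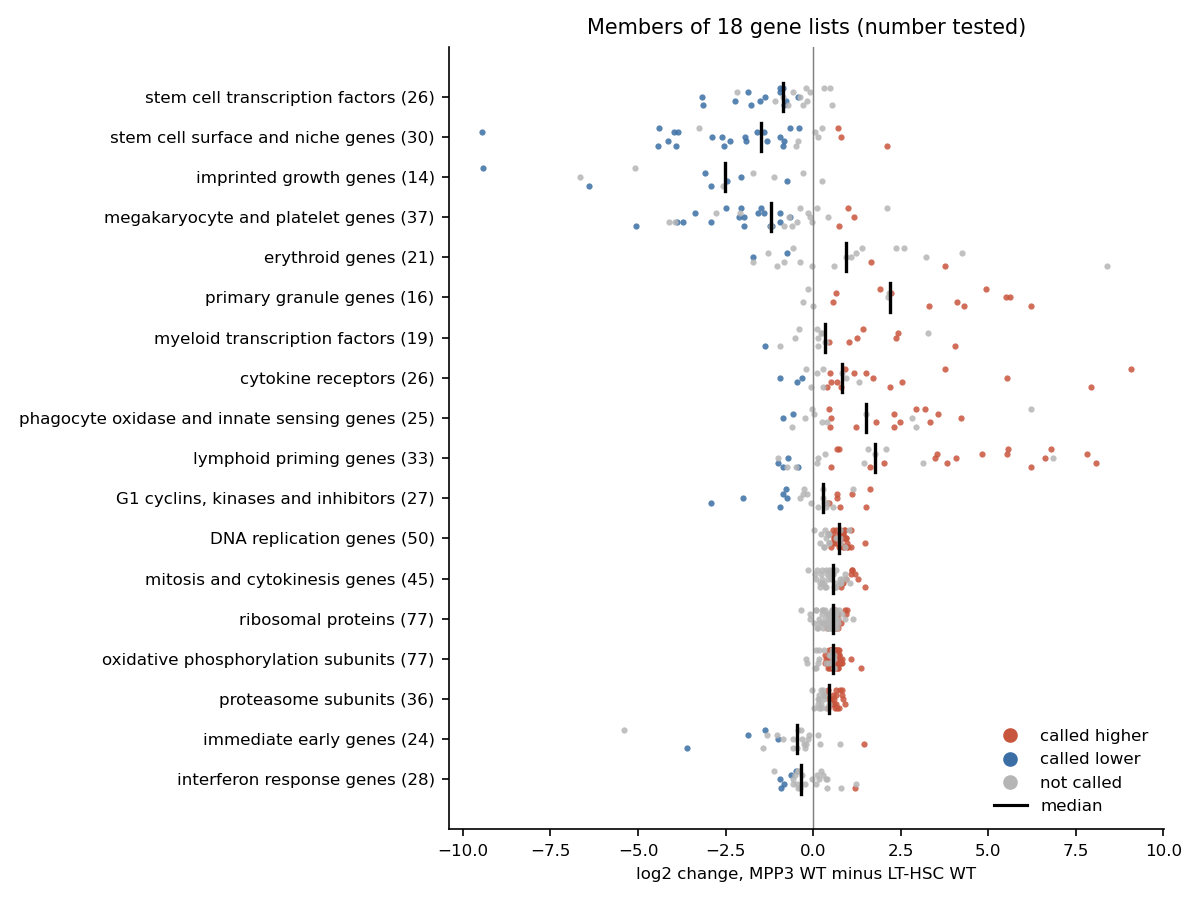
Log2 change of MPP3 WT against LT-HSC WT for each tested member of 18 gene lists, with members past an adjusted p of 0.05 in colour and the median as a black bar. Stem cell surface, imprinted and platelet lists lie mostly below 0, and granule, lymphoid, replication and oxidative phosphorylation lists mostly above; values of genes with 0 reads in a group are fitted, not bounds.

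Several transcription factors of the stem cell fell. Of 26 tested, 13 fell and none rose, with a median log2 change of -0.85 against -0.001 over all genes, and 8 fell without MPP3 WT 1 and 2. Mllt3, a reader of acetylated histones that maintains stem cells, was 248, 281 and 251 CPM in LT-HSC WT and 30.8, 31.5 and 25.9 in MPP3 WT. Mecom, required for stem cell self-renewal, was 482, 360.0 and 314 CPM against 97.8, 86.9 and 62.7, a log2 change of -2.23 ± 0.26 (SE) (adjusted p = 2.78e-05, edgeR). In neither gene did the groups overlap, and MPP3 kept a level well above 0. Prdm16 (-1.77), Nkx2-3 (-1.38) and Tcf15 (-3.16) also fell by more than 1 on the log2 scale. Fli1 (-0.86) and Meis1 (-0.78) fell less, at adjusted p of 8.4e-05 and 0.00103 (edgeR). Hlf, a factor restricted to stem and early progenitor cells, was 444, 524 and 478 CPM against 337, 319 and 307 and did not pass (-0.59 ± 0.28 (SE)), but passed when edgeR was fitted to the 2 groups alone (-0.58, adjusted p = 0.00593). Runx1, -0.30 ± 0.11 (SE) with adjusted p = 0.0759, passed with the mouse as a block (-0.29, adjusted p = 0.0421, edgeR) and in DESeq2 (-0.33, adjusted p = 0.0245).

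Most genes of the stem cell surface and niche list, which also holds enzymes and an efflux pump that mark stem cells, fell. Of 30 tested, 21 fell and 3 rose, with a median of -1.5. Angpt1, the ligand of the niche receptor Tek, was 1342, 1096 and 1020 CPM in LT-HSC WT and 566, 739 and 477 in MPP3 WT, with groups that did not overlap. Aldh1a1, a retinaldehyde dehydrogenase (-4.14 ± 0.37 (SE), adjusted p = 1.36e-06, edgeR), the junction molecules Jam2 (-3.87) and Jam3 (-2.88), Sult1a1 (-4.43) and Ctnnal1 (-2.60) fell as well. The change was shallow for Eng, a co-receptor of TGF-beta (-0.67), and for Abcg2, the dye efflux pump behind the side population (-0.85). The TGF-beta receptor Tgfbr3 (-2.37) and the markers Procr (-1.31), Fgd5 (-1.94) and Esam (-1.40) fell. Cd34 went the other way, from 393, 562 and 438 to 2078, 2055 and 1920 CPM (2.12 ± 0.11 (SE), adjusted p = 3.11e-09, edgeR), and so did Cd27, a TNF receptor family member (0.72 ± 0.08 (SE)). Low Cd34 is a known trait of adult mouse LT-HSC.

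Imprinted growth genes, several of which are known to hold stem cells in rest, fell wherever they were called. Of 14 tested, 7 fell and none rose, with a median of -2.51. Cdkn1c, which encodes the cell cycle inhibitor p57, was 25.04, 30.3 and 26.4 CPM in LT-HSC WT and 3.35, 4.03 and 3.51 in MPP3 WT, a narrow spread in both groups. Grb10, an adaptor that restrains growth factor receptors, was 209, 194 and 219 against 27.6, 42.3 and 43.9, and Ndn, a growth suppressor, 62.1, 72.8 and 97.5 against 7.37, 7.64 and 12.6. The maternally expressed RNA Meg3 had no read in MPP3 WT and was at least 85.9-fold lower. Igf2r, the receptor that clears IGF2, was 55.3, 70.1 and 61.3 CPM in LT-HSC WT, 16.1, 14.3 and 13.96 in MPP3 WT (-2.07 ± 0.23 (SE), adjusted p = 1.33e-05, edgeR) and 119, 88.3 and 112 in MPP4 WT. Its MPP4 levels thus lay above all LT-HSC levels and its MPP3 levels below them, and MPP3 against MPP4, which shares the MPP3 libraries, gave -2.84 ± 0.23 (SE) (adjusted p = 2.67e-06, edgeR).

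Of 37 megakaryocyte and platelet genes tested, 18 fell, 3 rose and 16 were not called, with a median of -1.20. The number that fell was 11 without MPP3 WT 2, 10 without LT-HSC WT 2 and 3, and 8 without MPP3 WT 1 and 2. Mmrn1, the multimerin of platelet granules, was 1464, 1066 and 973 CPM in LT-HSC WT and 133, 89.1 and 44.01 in MPP3 WT (-3.72 ± 0.42 (SE), adjusted p = 2.01e-05, edgeR). Vwf averaged 608 ± 53.4 CPM (SD, n = 3) in LT-HSC WT and 18.2 ± 10.8 in MPP3 WT. Both were far apart between groups in every mouse. Pf4, a platelet chemokine (-3.36 ± 0.56 (SE)), Gp9, part of the von Willebrand receptor (-1.499), Gucy1a1 (-1.97), the tetraspanin Cd9 (-0.94) and Zfpm1, the GATA cofactor FOG-1 (-0.95), also fell. Tgfb1 rose from 152, 137 and 156 to 240.4, 234 and 264 CPM (0.73 ± 0.13 (SE), adjusted p = 0.00148, edgeR). Plek, a protein kinase C substrate of platelets and leukocytes, rose from 172, 132 and 205 to 436, 382 and 318. Selp, P-selectin, was 39.05, 60.95 and 45.3 against 79.2, 99.4 and 113 (1.01 ± 0.33 (SE), adjusted p = 0.0458, edgeR), a call lost when any 1 of the 6 libraries was left out (0.86 to 1.19, adjusted p = 0.052 to 0.148, edgeR). The lineage factors Gata1 and Nfe2 and the surface gene Itga2b were not called. Gata1 was 44.2, 32.6 and 64.6 against 38.4, 25.6 and 38.7 CPM, Nfe2 816, 722 and 608 against 759.9, 622 and 614 and Itga2b, which encodes CD41, 270.4, 209 and 321 against 204, 145 and 152, the last passing only with the 2 groups fitted alone (-0.67, adjusted p = 0.0458, edgeR) and with a block in that fit (-0.66, adjusted p = 0.0254).

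Of 21 erythroid genes tested, 2 were higher and 2 lower, a share near that over all genes (9.68% and 7.66%), and limma voom called 6 higher and 3 lower. Car1, a carbonic anhydrase of red cell progenitors, was 1.91, 4.71 and 7.99 CPM in LT-HSC WT and 69.8, 75.1 and 55.2 in MPP3 WT (3.75 ± 0.89 (SE), adjusted p = 0.00855, edgeR), and 0.409, 0 and 0.400 in MPP4 WT. It was thus present in MPP3 and near 0 in MPP4 (7.96 for MPP3 against MPP4, adjusted p = 0.000446, edgeR). Klf1, the master factor of red cells, was 8.43, 3.13 and 8.07 against 16.4, 11.2 and 10.2 CPM and missed the threshold (adjusted p = 0.283, edgeR). The 2 called lower were Car2 and Epor. Car2 went from 1810, 1730 and 1700 to 1183, 1034 and 905 CPM (-0.75, adjusted p = 0.0241, edgeR). Epor went from 14.3, 18.1 and 24.7 to 4.96, 6.30 and 6.22 CPM (-1.71, adjusted p = 0.0216, edgeR).

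Most members of the primary granule list rose, a list that is not limited to the proteases and peroxidase of these granules. Of 16 tested, 11 rose and none fell, with a median of 2.19. Nkg7, a granule membrane protein, was 36.05, 27.8 and 31.1 CPM in LT-HSC WT and 274, 312 and 350.2 in MPP3 WT (3.30 ± 0.14 (SE), adjusted p = 3.52e-10, edgeR). Cst7, an inhibitor of granule cathepsins, was 0.507, 0.917 and 0.685 against 27.1, 33.9 and 42.2. Plac8 was 16.6, 30.5 and 40.5 against 394, 512 and 602. All had groups that did not overlap, and the Cst7 promoter is the one above that holds both motifs. Serpinb1a, which blocks neutrophil elastase, rose by 2.23, the protease Prtn3 by 1.91, and the granule proteoglycan Srgn and the chaperone Calr by 0.57 and 0.65. Ctsg, cathepsin G, was 0.195, 0.0417 and 7.28 CPM in LT-HSC WT and 83.4, 148 and 154 in MPP3 WT (5.52 ± 0.94 (SE)), and Ms4a3 0, 0.459 and 3.15 against 25.2, 51.96 and 42.2 (4.94). In Mpo, Ctsg, Ms4a3 and Elane the highest LT-HSC value was that of LT-HSC WT 3, one of the libraries with neutrophil transcripts, whose part in these values was not tested. Elane, neutrophil elastase, was 0.195, 0.167 and 33.5 CPM against 125, 338 and 236 (4.31 ± 1.30 (SE), adjusted p = 0.0312, edgeR). Its call was lost in edgeR without LT-HSC WT 1 (adjusted p = 0.0739), LT-HSC WT 2 (0.0768), MPP3 WT 2 (0.0718) or MPP3 WT 3 (0.0668). Without LT-HSC WT 2 and 3, 13 granule genes rose, and Mpo gave 8.91 and Elane 10.16 on the log2 scale. Lyz2, a lysozyme of mature myeloid cells, was 359, 468 and 679 against 426, 550.0 and 538 CPM, with overlapping groups (0.01 ± 0.18 (SE)), and Ctsc, Gstm1, Hp and Igsf6 were not called. Of these, Ctsc passed under 6 of 22 alternatives, among them DESeq2 (-0.33, adjusted p = 0.0163) and the mouse as a block (-0.30, adjusted p = 0.0492, edgeR). Igsf6 passed under 5, among them the block (2.72, adjusted p = 0.0187, edgeR) and without LT-HSC WT 3 (3.68, adjusted p = 0.0107, edgeR). Hp passed under 2, limma voom (3.33, adjusted p = 0.0486) and without LT-HSC WT 2 and 3 (7.85, adjusted p = 0.0472, edgeR).

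**Figure D3:**
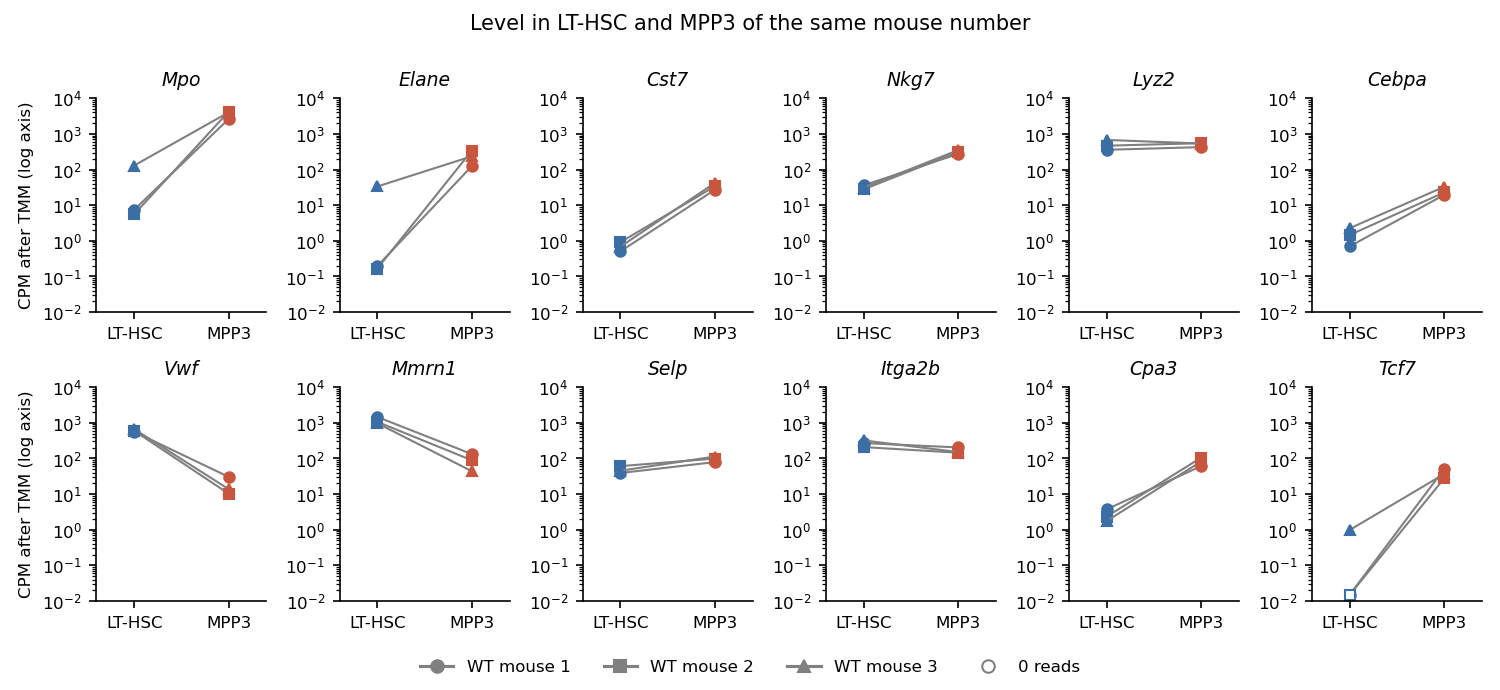
CPM (log axis) of 12 genes in LT-HSC WT and MPP3 WT, with a line joining the libraries of each mouse. Mpo, Nkg7, Cst7, Cebpa, Cpa3 and Tcf7 climb and Vwf and Mmrn1 drop in all 3 mice, while Lyz2 runs level or crosses.

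Several factors that drive granulocyte and monocyte fate rose too. Of 19 tested, 7 rose and 1 fell (2 with the mouse as a block), with a median of 0.35. Cebpa, required for granulocyte commitment, was 0.702, 1.46 and 2.27 CPM in LT-HSC WT and 19.5, 22.9 and 32.9 in MPP3 WT (4.05 ± 0.34 (SE), adjusted p = 7.43e-07, edgeR). Spi1, which encodes PU.1, was 52.5, 79.2 and 63.2 against 125, 132 and 136, a smaller change on a higher base. Irf8 (2.42 ± 0.45 (SE)) and Cebpd (2.37 ± 0.37 (SE)) rose by more than 2 on the log2 scale, Gfi1 by 1.42 and Myb by 0.44. In MPP4 WT, Cebpa, Spi1, Irf8 and Gfi1 averaged 28.2, 145, 224 and 58.3 CPM, against 25.1, 131, 71.8 and 35.9 in MPP3 WT. Cebpd and Myb averaged less in MPP4 WT, 9.87 and 450 against 11.6 and 541 CPM. Among these genes MPP3 against MPP4 passed only for Irf8 (-1.64, adjusted p = 0.0362, edgeR). Nfia, a factor of erythroid and stem cells, fell from 39.05, 44.4 and 48.8 to 16.5, 19.3 and 15.3 CPM (-1.37 ± 0.29 (SE), adjusted p = 0.00401, edgeR).

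Many cytokine receptors rose, with 15 of 26 tested higher and 3 lower and a median of 0.81. The lower count was 1 without LT-HSC WT 1, 2 or 3, MPP3 WT 1 or MPP3 WT 3. Csf3r, the G-CSF receptor, was 74.5, 97.3 and 118 CPM in LT-HSC WT and 299, 325 and 330.5 in MPP3 WT (1.72 ± 0.21 (SE), adjusted p = 5.2e-05, edgeR). Csf1r, the M-CSF receptor, was 0.117, 1.21 and 7.13 against 27.5, 45.1 and 51.8. Neither gene's groups overlapped, with Csf1r starting close to 0 in LT-HSC WT 1. Il1r1, the IL-1 receptor, rose by 2.20, Il10ra by 2.54, Csf2rb, the common beta chain of the GM-CSF, IL-3 and IL-5 receptors, by 1.52 and the alpha chain Il3ra by 1.18. The receptor of the IL-33 alarmin, Il1rl1, was 0, 0 and 0.0643 against 5.55, 9.74 and 8.43 CPM, and 0 in all 3 in MPP4 WT. Il7r, the lymphoid receptor, was 0.039, 0.542 and 0 against 11.8, 6.80 and 4.34 CPM (5.54 ± 1.17 (SE), adjusted p = 0.00386, edgeR).

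Genes of the phagocyte oxidase and of innate sensing were higher for 13 of 25 tested and lower for 2, with a median of 1.51. Ncf4 and Ncf1, cytosolic subunits of the oxidase, rose from 11.7, 9.34 and 12.2 to 58.1, 50.2 and 57.5 CPM and from 8.62, 10.3 and 13.7 to 34.1, 55.3 and 72.6. Cd53, a leukocyte tetraspanin, was 11.8, 10.6 and 16.02 against 217, 242 and 255 CPM (4.21 ± 0.38 (SE), adjusted p = 1.42e-06, edgeR). No library of LT-HSC WT reached an MPP3 WT library in these genes. Tyrobp, the adaptor DAP12 (3.19), Clec12a, an inhibitory lectin (3.34), and Emb, embigin (1.79), also rose, and Rac2, the oxidase's GTPase, rose by 0.51.

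Several mast cell and basophil transcripts were present in MPP3 and at or near 0 in LT-HSC. Of 10 markers of mast cells, basophils and eosinophils tested, 6 rose, with a median fitted log2 change of 6.61, or 5.20 with the 5 genes that had no LT-HSC WT read set at their bound. Cpa3 was 3.75, 2.33 and 1.76 CPM in LT-HSC WT, 60.98, 106 and 82.3 in MPP3 WT (5.005 ± 0.45 (SE), adjusted p = 1.32e-06, edgeR) and 1.97, 2.29 and 1.71 in MPP4 WT. MPP3 was above MPP4 as well (5.38 ± 0.46 (SE), adjusted p = 3.48e-06, edgeR, with the MPP3 libraries shared between these tests). Besides Mcpt8 and Ms4a2, the basophil protease Prss34 was at least 231-fold and the mast cell chymase Cma1 at least 133-fold higher than in LT-HSC WT. In MPP4 WT, Ms4a2 and Cma1 had no read, but Mcpt8 was 1.12, 3.05 and 6.11 CPM and Prss34 0.819, 0 and 6.29. For Mcpt8 and Prss34, MPP3 against MPP4 did not pass (adjusted p = 0.0714 and 0.595, edgeR). Prg2, the eosinophil major basic protein, was 0.039, 0.125 and 11.3 against 27.6, 13.3 and 28.3 CPM and not called. Fcer1a was 3.706, 0 and 0.343 against 1.615, 2.56 and 2.06 CPM, with overlapping groups, and was not called either. The summed level of the markers was 7.49, 2.46 and 14.2 CPM in LT-HSC WT and 135, 166 and 153 in MPP3 WT. Which cells of the gate carry these reads was not tested.

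Many lymphoid priming genes rose as well. Of 33 tested, 17 rose and 4 fell, with a median of 1.76. Dntt, the DNA polymerase TdT of antigen receptor joining, was 2.50, 1.54 and 0 CPM in LT-HSC WT, 144, 94.05 and 152 in MPP3 WT and 3610, 3076 and 2458 in MPP4 WT. MPP3 thus lay between LT-HSC and MPP4 for Dntt, and the same order held for Satb1, a chromatin organiser (5.58, 9.67 and 17.6, then 139, 105 and 127, then 594, 464 and 520.1 CPM). Tcf7, the T lineage factor TCF-1, was 0, 0 and 0.985 CPM in LT-HSC WT, 50.9, 27.8 and 36.7 in MPP3 WT (6.63 ± 0.97 (SE), adjusted p = 0.000221, edgeR) and only 1.30, 4.17 and 1.78 in MPP4 WT, where MPP3 against MPP4 gave 3.98 ± 0.84 (SE) (adjusted p = 0.00855, edgeR). Cd52 (3.53) and the calponin Cnn3 (2.03) rose too. Mef2c, a factor of lymphoid fate, fell from 439.5, 370.1 and 445 to 231, 254 and 210.4 CPM (-0.85 ± 0.11 (SE), adjusted p = 7.88e-05, edgeR), while MPP4 WT stood at 618, 534 and 472. Ighm was 1.56, 8.004 and 10.2 CPM against 1942, 2431 and 150.3 (7.81 ± 1.35 (SE)), and 4.48 without MPP3 WT 1 and 2, the libraries with the most immunoglobulin reads. Immunoglobulin segments also came to 191 CPM in MPP3 WT 3 and to 1390, 1120 and 952 CPM in MPP4 WT 1 to 3.

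In the Ikaros family, to which Helios belongs, Ikzf1 rose from 140.2, 142 and 154 to 189, 211 and 192 CPM (0.44 ± 0.10 (SE), adjusted p = 0.00516, edgeR). Ikzf4, which encodes Eos, fell from 17.1, 11.96 and 19.6 to 0.0394, 1.26 and 0.145 CPM (-5.08 ± 1.10 (SE), adjusted p = 0.00483, edgeR). Ikzf2, Helios itself, was 39.8, 42.02 and 39.4 against 42.6, 65.6 and 38.3 CPM, with overlapping groups (0.27 ± 0.32 (SE)), and Ikzf3 and Ikzf5 stayed under 5 CPM and were not called.

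The genes that set entry into the cell cycle moved in both directions, with 8 of 27 tested higher and 6 lower. Without LT-HSC WT 2, MPP3 WT 1 or MPP3 WT 3 the higher count was 4, 5 and 4. Cdk6, the kinase that shortens the exit from rest, was 419, 444 and 574 CPM in LT-HSC WT and 1206, 1486 and 1411 in MPP3 WT (1.51 ± 0.13 (SE), adjusted p = 1.08e-06, edgeR). Cdk4 was 467, 414 and 466 against 784, 691 and 825. Both kinases were higher in every MPP3 library than in any LT-HSC library. Their partner cyclin gene Ccnd2 fell from 411, 398 and 429 to 216, 244 and 226 CPM (-0.85 ± 0.12 (SE)), the pocket protein gene Rbl2 fell by 0.76, and the inhibitor Cdkn1c fell as given above. Mycn fell from 299, 325 and 345 to 68.3, 73.8 and 99.8 CPM (-2.002 ± 0.25 (SE), adjusted p = 4.53e-05, edgeR). Myc was 584, 449 and 459 against 689, 709 and 974 (0.67 ± 0.16 (SE), adjusted p = 0.00933, edgeR), a call lost without LT-HSC WT 2 (adjusted p = 0.0513) or MPP3 WT 3 (0.0624).

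Most DNA replication genes rose in MPP3 by modest amounts. All 50 tested had a change above 0 and 31 passed the test, with a median of 0.74. The number that passed was 11 without LT-HSC WT 2, 18 without MPP3 WT 1, 14 without MPP3 WT 3, 8 without LT-HSC WT 2 and 3, 10 without MPP3 WT 1 and 2, and 43 with the mouse as a block. Rfc2, a clamp loader subunit, was 221, 196 and 273 CPM in LT-HSC WT and 479, 430.3 and 477 in MPP3 WT (1.01 ± 0.12 (SE), adjusted p = 5.17e-05, edgeR). Mcm7 was 295, 189 and 267 against 464, 418 and 470.4 and Mcm5 494, 315 and 471 against 804, 688 and 825, with the lowest LT-HSC value in LT-HSC WT 2 for both. The helicase genes shown above for their E2F matches thus rose by 0.85 and 0.86. Gins1, of the helicase complex, rose by 1.47, and the fork protection genes Timeless and Tipin by 0.94 and 0.77.

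Mitosis and cytokinesis genes pointed the same way but mostly missed the threshold. A change above 0 was seen in 44 of 45, with a median of 0.58, and 10 passed. Leaving out LT-HSC WT 1, LT-HSC WT 2, MPP3 WT 1 or MPP3 WT 3 left 3, 2, 4 and 2. Leaving out LT-HSC WT 2 and 3 left 3, leaving out MPP3 WT 1 and 2 left 1, and the mouse block gave 25. Ect2, which positions the cleavage furrow, was 21.1, 19.5 and 31.5 CPM in LT-HSC WT and 73.5, 70.05 and 56.9 in MPP3 WT (1.47 ± 0.20 (SE), adjusted p = 0.000132, edgeR). Mki67 was 28.1, 12.97 and 21.7 against 30.96, 32.7 and 44.7 CPM and did not pass (0.79 ± 0.47 (SE), adjusted p = 0.281, edgeR). Top2a was not called (0.38 ± 0.32 (SE)) and passed with the mouse block (0.39, adjusted p = 0.0276, edgeR).

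Oxidative phosphorylation subunits rose by small amounts. Of 77 oxidative phosphorylation subunits, 75 were above 0 and 56 passed, all higher, with a median of 0.58; the number was 33, 36 and 37 without LT-HSC WT 1, 2 or 3 and 22 without MPP3 WT 3 or without LT-HSC WT 2 and 3. Ndufa4, a respiratory chain subunit, was 81.1, 85.96 and 86.7 CPM against 198, 203 and 254 (1.37 ± 0.14 (SE), adjusted p = 7.19e-06, edgeR), and Cox5a of complex IV and Uqcrfs1 of complex III rose by 1.07 and 0.72. No MPP3 library of these genes fell within the LT-HSC range. Proteasome subunits were higher for 20 of 36 (8 without LT-HSC WT 2 and 3) and lower for none, with a median of 0.44, among them Psma1 (252, 254 and 239.8 against 408, 389.9 and 437 CPM) and the immunoproteasome subunits Psmb8 (0.91 ± 0.14 (SE)) and Psmb9 (0.75 ± 0.13 (SE)). Ribosomal protein genes, many of which have processed copies that can share reads, were above 0 in 74 of 77, with a median of 0.56, and 17 passed. That count was 5, 11, 27 and 3 without LT-HSC WT 1, LT-HSC WT 2, MPP3 WT 1 and MPP3 WT 3, and 42 with the mouse block. Ribosome biogenesis genes had a median of 0.19 and 6 of 46 passed, a share near the 9.68% of all tested genes called higher. Nhp2 had the smallest p of them (0.86 ± 0.16 (SE)). Without LT-HSC WT 2 or MPP3 WT 3 the number that passed was 3 and 1, and with the block 13.

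Glycolysis and glucose transport genes were mixed, with 5 of 25 higher and 4 lower; the lower count was 2 without LT-HSC WT 2, MPP3 WT 1 or MPP3 WT 3, and the higher count 3 without MPP3 WT 3 and 8 with the mouse block. Hk3, the hexokinase of myeloid cells, was 19.3, 37.6 and 60.9 CPM in LT-HSC WT and 214, 253 and 247 in MPP3 WT (2.59 ± 0.33 (SE), adjusted p = 5.62e-05, edgeR). The glucose transporter gene Slc2a3 fell from 289.7, 268 and 284 to 157, 155 and 142 CPM, and Pfkp, a phosphofructokinase, fell by 0.68 on the log2 scale. Cholesterol synthesis genes stayed near level, with 2 of 25 higher and 1 lower, or 3 lower with the mouse block, and a median of -0.01.

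Early response genes, which are also known to react to tissue handling, were lower for 4 of 24 tested and higher for 1, with a median of -0.45; without MPP3 WT 3, 2 were lower. Egr1, a zinc finger factor linked to stem cell rest, was 306, 64.6 and 71.4 CPM in LT-HSC WT and 18.04, 6.21 and 12.3 in MPP3 WT (-3.59 ± 0.57 (SE), adjusted p = 0.000465, edgeR). In both populations mouse 1 had the highest Egr1, and the lowest LT-HSC library still lay above the highest MPP3 library. Btg2, an antiproliferative gene, went from 23.1, 15.2 and 22 to 70.9, 52.2 and 40.5 CPM and was the member that rose. Fos and Jun were not called (-0.27 ± 1.28 (SE) and -0.14 ± 1.09 (SE)).

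Homing and adhesion genes were higher for 6 of 20 and lower for 3, and for 1 without MPP3 WT 3. Itgal, the alpha chain of LFA-1, was 3.94, 16.8 and 27.9 CPM in LT-HSC WT and 203, 190.3 and 223 in MPP3 WT (3.64 ± 0.52 (SE), adjusted p = 0.000189, edgeR). Itgb7 (1.72) and Itgam, the alpha chain of Mac-1 (2.37), rose, and Itga6, a laminin receptor chain, fell from 381, 339 and 329 to 181, 219.9 and 192 CPM. Interferon response genes were lower for 5 of 28 and higher for 1, with a median of -0.35. Without LT-HSC WT 2 or MPP3 WT 3, 3 were lower, and with the mouse block 10 were lower and 4 higher. Ifi27, the member called higher, rose by 1.18 on the log2 scale, against the direction of the list median. The 5 called lower are counted but not named here. Of 7 MHC class II genes, H2-Aa fell from 33.2, 52.4 and 54.5 to 10.4, 8.23 and 21.1 CPM, as did H2-Eb1 (-1.75) and Cd74. Cd74 was -1.30 ± 0.34 (SE) with adjusted p = 0.015 (edgeR), and its call was lost without MPP3 WT 3 (-1.06, adjusted p = 0.078). H2-DMa, which loads peptides, rose from 106, 132 and 134 to 223, 262 and 258 CPM, and H2-Ab1 was level (0.06 ± 0.27 (SE)).

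**Figure D4:**
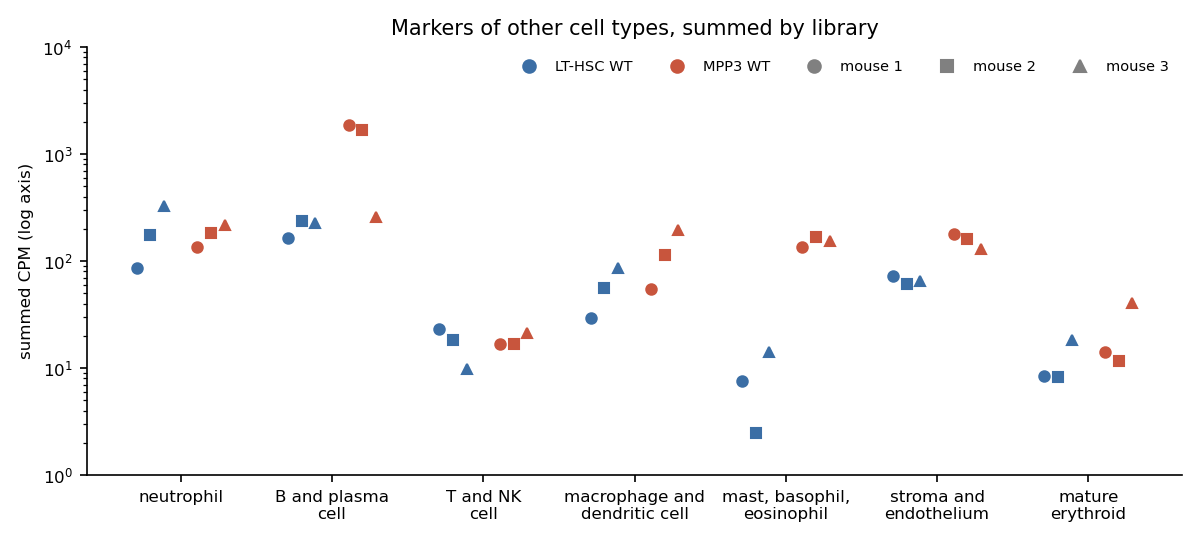
Summed CPM of marker genes of 7 other cell types in each LT-HSC WT and MPP3 WT library (log axis). Mast cell and B cell sums are higher in MPP3, B cell sums mainly in MPP3 WT 1 and 2, while neutrophil sums overlap between the groups and are lowest in LT-HSC WT 1.

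Markers of other cell types were summed in each library. Beside the counts that follow, 9.68% of all tested genes were called higher and 7.66% lower. Neutrophil markers came to 86.5, 175 and 330 CPM in LT-HSC WT 1 to 3 and 135, 182 and 218 in MPP3 WT, and 1 of 14 was called, Padi4 (0.61 ± 0.13 (SE)). B and plasma cell markers came to 165, 235 and 227 CPM in LT-HSC WT and 1850, 1670 and 258 in MPP3 WT, with 4 of 13 higher 2 without LT-HSC WT 1, MPP3 WT 1 or MPP3 WT 3, and 1 under limma voom. The B cell surface genes Cd22 and Ms4a1 did not exceed 2.05 CPM in any MPP3 WT library. Macrophage and dendritic cell sums were 29.2, 56.4 and 86.7 CPM against 54.4, 115 and 195, with 1 of 11 higher (2 with the mouse block) and 1 lower, and mature erythroid sums 8.42, 8.2 and 18.3 against 14.2, 11.7 and 40.1, with none of 6 called. Stroma and endothelium markers were 73.2, 61.5 and 65.1 CPM against 177, 160 and 130, with 1 of 8 higher and 2 lower. The 1 that rose, Pdgfrb, a growth factor receptor of mesenchymal cells, was 10.2, 10.6 and 16.4 CPM in LT-HSC WT and 174, 151 and 126 in MPP3 WT (3.59 ± 0.28 (SE), adjusted p = 4.11e-07, edgeR), and 180.0, 167 and 109 in MPP4 WT. The endothelial receptor gene Kdr fell from 36.6, 24.97 and 29.2 to 0.0394, 1.01 and 1.19 CPM, and Cdh5, Cxcl12 and Kitl were at 0 or under 4 CPM in all 6 libraries. Of 5 T and NK cell markers, 2 rose and 1 fell. Trbc1, a T cell receptor constant segment, was 0.039, 0.125 and 0 against 6.66, 6.50 and 7.01 CPM and Klrb1c, an NK receptor, 14.6, 9.09 and 4.86 against 1.26, 1.39 and 1.23. The part of other cells in the results above was not tested.

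In the KO mice, whose 6 libraries share none with the WT step, 2231 of 16325 genes (13.7%) passed, 1118 higher in MPP3 (6.85%) and 1113 lower (6.82%). Of these, 856 were also higher in WT (54.2% of the WT and 76.6% of the KO list) and 766 also lower (61.2% and 68.8%), and 0 were called in opposite directions. The log2 change had the same sign in KO for 1549 of the 1580 higher and 1227 of the 1251 lower WT genes. Mpo rose by 8.74 ± 1.03 (SE) in KO, with LT-HSC KO at 8.48, 6.34 and 7.78 and MPP3 KO at 4447, 1849 and 3371 CPM, so no LT-HSC KO library showed the high value of LT-HSC WT 3. Mmrn1 changed by -3.33 ± 0.41 (SE), Nkg7 by 3.22 ± 0.14 (SE) and Cpa3 by 4.08 ± 0.42 (SE) in KO, all with an adjusted p under that threshold (4.9e-05, 4.95e-10 and 7.19e-06, edgeR). Ikzf2 itself kept reads in KO, 11.1, 6.56 and 11.2 CPM in LT-HSC KO and 19.03, 19.03 and 23.9 in MPP3 KO. The difference between the KO and the WT step passed for 0 genes in edgeR, with 602 at an unadjusted p under 0.05, for 0 in limma voom (587 unadjusted) and for 4 in DESeq2, namely Dock10, Nlrp6, Arl11 and Gpr141. That these steps do not differ is not shown by a p that misses the threshold.

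**Figure D5:**
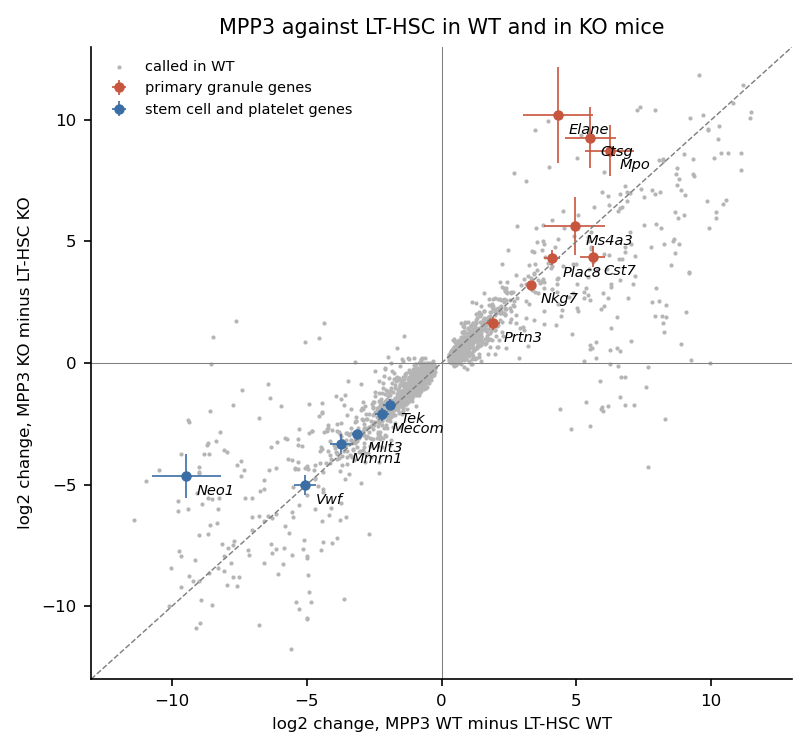
Log2 change of MPP3 against LT-HSC in WT mice (x) and in Helios KO mice (y) for genes called in WT, with granule, stem cell and platelet genes labelled and their standard errors as bars. Points follow the dashed line of equal change, with Mpo and Elane above it.

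MPP4 WT, set against the same LT-HSC WT libraries, gave the following list medians, which share their LT-HSC libraries with those of MPP3. Stem cell surface genes had a median log2 change of -1.5 in MPP3 and -3.04 in MPP4, and megakaryocyte and platelet genes -1.20 and -2.77. Primary granule genes had 2.19 in MPP3 and 0.21 in MPP4, and lymphoid priming genes 1.76 and 3.58. Set directly against MPP4, MPP3 had a granule median of 0.62. Cst7, Plac8 and Serpinb1a averaged 64.0, 633 and 453 CPM in MPP4 WT, against 34.4, 503 and 431 in MPP3 WT. The other granule genes that rose averaged more in MPP3 WT, among them Mpo, at 3631 CPM against 1153 in MPP4 WT. Of all these, MPP3 against MPP4 passed for Nkg7, Prtn3, Srgn, Ms4a3 and Elane. It did not pass for Mpo (1.655, adjusted p = 0.311, edgeR), Ctsg, Calr, Cst7, Plac8 or Serpinb1a. DNA replication (0.74 and 0.61), oxidative phosphorylation (0.58 and 0.56) and proteasome medians (0.44 and 0.42) were close in both.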

How the data were processed

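Full-length cDNA made from poly(A) RNA of sorted cells with SMART-Seq v4, an amplification kit for small samples, was turned into Nextera XT libraries, which do not mark strand, per the labels' protocols; overlapping and antisense genes therefore cannot be told apart. Per the file headers, the authors deposited raw counts, which are whole numbers of reads for each Ensembl gene, in 1 column for each of 18 libraries. Normalized signal, the count divided by a size factor per library, with and without division by the median transcript length, was deposited beside them per the file headers and was not used in tests. The log2 fold changes and p-values of KO against WT that the authors deposited were not used. Tools credited to the submitters' processing notes are DESeq and bcl2fastq 2.17.1.14, with mm10 as the genome build; which aligner, counting tool and annotation release were used is not given in the sources.

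Counts were tested with edgeR 4.0.16 in R 4.3.3: filterByExpr over the 6 groups (16325 genes), TMM scaling, 1 mean per group, all 18 libraries in the fit, glmQLFTest, and Benjamini-Hochberg adjustment over all genes at 0.05. Levels are CPM (counts scaled to the library total) after TMM scaling, values are given as mean ± SD over 3 libraries where pooled, and standard errors are the log2 change divided by the square root of the F statistic. The median standard error was 0.264. On simulated counts of these 6 groups, with 16325 genes, 45% of 100 genes changed by 1 and 63% of 100 changed by 2 on the log2 scale were recovered, with 8 false calls. A gene without reads in a group is given as a bound against 3 reads over that group.

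Groups were read from the labels. Each population came from the same 3 mice per genotype per the series' design text, and the number in the title was taken to pair them: within-number correlations of deviations from the group mean were 0.074 to 0.10 in WT and 0.084 to 0.125 in KO, against -0.096 to 0.017 between numbers. Deviations from a mean of 3 libraries sum to 0, so values above 0 within numbers push those between numbers below 0. Whether a number stands for a mouse or for a shared batch was not tested. The mouse block was therefore run as an alternative, beside RLE scaling, other filters, DESeq2 1.42.0, limma 3.58.1 (voom), a fit of the compared groups alone, and leaving out libraries. The text names up to 12 genes per direction with the largest change among those past the threshold that average 10 CPM or more in the higher population and show no overlap of libraries, leaving out predicted or clone-named genes, immunoglobulin and T cell receptor segments and gate genes, and members of lists with the smallest p. Ighm was named as a list member. The Mcm7, Mcm5, Cpa3 and Ms4a2 promoters were chosen after their motif matches were seen. Members and lists were chosen with earlier results of these data known. Some members of the lists are counted but not reported by name here.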

Additional observations from a re-analysis of the deposited data

How the results depend on the processing

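The WT step gave 1580 higher and 1251 lower genes, and between 919 and 1612 higher and between 690 and 1303 lower when 1 library was left out, lowest without MPP3 WT 3. For the KO step the ranges were 640 to 1203 (lowest without LT-HSC KO 2) and 708 to 1167 (lowest without MPP3 KO 3). With LT-HSC WT 2 and 3 left out, 963 were higher and 814 lower, and 18 genes differed between the KO and WT steps; with MPP3 WT 1 and 2 left out, 757 were higher and 436 lower. DESeq2 called 4 genes for the step difference, where edgeR called 0. With the replicate block, pairing LT-HSC and MPP3 of a mouse, 2188 were higher and 1611 lower in WT and 1621 and 1468 in KO; 2751 WT genes were called with and without the block, 80 only without and 1048 only with it. Scaling, filters and the other tools kept these counts within 1.5 times. Of 149 named genes past the threshold, 115 were called under all 22 alternatives, 34 lost their call under at least 1 and 0 reversed. Car2 and Epor were not among those followed. With 3 mice per group and a median standard error of 0.264 on the log2 scale, many real changes can be missed, and values of genes under a few CPM rest on few reads. On simulated counts, 45% of changes of 1 and 63% of changes of 2 on that scale were recovered. That simulation changed only 100 genes at each size among 16325, while 2831 were called in the data, so its recovery need not hold for the data.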
